A study of Mus musculus with 45 samples.

Results

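The genes described here encode receptors of extracellular nucleotides and adenosine, the related receptor gene *Gpr34*, and enzymes that break nucleotides down at the cell surface. They were chosen by name as *P2ry12*, *P2ry13*, *P2ry6*, *P2ry14*, *Gpr34*, *P2rx4*, *P2rx7*, *Adora3*, *Entpd1* and *Nt5e*. All 10 were listed in each of the 3 count tables, which hold 42874 gene symbols in common. RNA sequencing was done on 45 samples of C57BL/6 mice in 7 groups. Organotypic brain slices, thin coronal slices of neonatal brain without the cerebellum, were cultured for 2 weeks and then kept for 24 h in medium alone (9 samples), with 50 ng/mL tumor necrosis factor (TNF, 11 samples) or with 20 ng/mL GM-CSF, the colony-stimulating factor of granulocytes and macrophages (9 samples). Microglia were also taken from adult mice, 10 to 15 weeks old and female per the methods, 24 h after 1 mg/kg lipopolysaccharide (LPS, a bacterial cell wall component, 4 samples) or after phosphate-buffered saline (PBS, 4 samples). Flash-frozen brain tissue of mice of that age came from animals given the same LPS dose 24 h earlier (4 samples) or left untreated (4 samples). The brain tissue controls were therefore not injected animals, in contrast to the PBS controls.

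Both kinds of microglia were sorted as live cells with high CD11b and intermediate CD45, a gate that border macrophages or newly arrived myeloid cells can also enter. A slice sample pooled 3 slices per the labels, whereas the study's legends give 2 to 3 slices that were treated separately. They also give 4 independent experiments as the source, without saying which sample came from which or whether samples shared a brain, so p-values measure the spread between samples. Slice microglia libraries held 5973364 to 9165485 counts, adult ones 11391564 to 14216005 and those of brain tissue 8199863 to 10368578, where LPS libraries (8199863 to 9452488) were shallower than untreated ones (9641550 to 10368578). Levels are in CPM, the counts of a gene relative to its library total, after the totals were adjusted by TMM (the trimmed mean of M-values, a scaling between libraries), and levels of different genes are compared as CPM per kilobase (kb) of exon. A gene was called where the edgeR adjusted p was under 0.05 and the fold change over 1.5. The summed CPM of 10 microglia markers, none of them among the 10 genes and none at 0 in any group, was 24239 to 34161 in medium, 13663 to 17165 with TNF and 18816 to 20887 with GM-CSF. It was 56408 to 61837 in PBS and 44586 to 50424 in LPS microglia. Of the 10 markers, 7 were called lower with TNF and 5 with GM-CSF, where 11.7% and 5.96% of all genes tested were. LPS in adult microglia called 3 markers lower and 1 higher, where 1691 and 1872 of 12987 genes were.

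Cells that are active or damaged release ATP, which acts on ion channels of the P2X family and, as ADP after loss of a phosphate, on G protein-coupled receptors of the P2Y family. Ectonucleotidases at the cell surface turn ATP and ADP into AMP and then into adenosine, which has receptors of its own. In microglia, the resident macrophages of the brain, P2RY12 guides the movement of processes toward a source of ATP or ADP and is widely used as a marker of the resting state.

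*P2ry12*, *P2ry13* and *P2ry14* lie in a row on the minus strand of chromosome 3, at chr3:59216272-59262871, chr3:59207892-59210882 and chr3:59113855-59153618 (GRCm38). *P2ry13* ends 5389 bases from *P2ry12* and 54273 bases from *P2ry14*, and all 3 lie within *Med12l*, a mediator subunit gene on the opposite strand. Exons of *Med12l* cover 9 bases of the exons of *P2ry12* and 0 bases of the others. *P2rx7* (chr5:122643911-122691432) and *P2rx4* (chr5:122707544-122729738) are also neighbours, 16111 bases apart on the plus strand. The other genes stand alone, *P2ry6* at chr7:100937630-100974649, *Gpr34* at chrX:13632089-13640858 within *Cask*, *Entpd1* at chr19:40612366-40741602, *Nt5e* at chr9:88327197-88372092 and *Adora3* at chr3:105870858-105908926. *Adora3* shares 20.89% of its 3729 exon bases with *Tmigd3* on the same strand, so its counts are uncertain to that extent. All 10 are annotated as protein-coding.

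The 250 bases before the RefSeq start are shown for 4 of these genes, because *P2ry12*, *P2ry13* and *Entpd1* fell in slice and adult microglia and *P2rx4* rose with TNF and with LPS in adult microglia. For *P2ry12* that start lies outside the gene span given above, so its window and motif positions do not count from the end of that span. Sequences are from RefSeq (GRCm38.p6), 5′ to 3′ on the strand of the gene, with capitals where a searched motif matched.
P2ry12, chr3:59262986-59263235, minus strand: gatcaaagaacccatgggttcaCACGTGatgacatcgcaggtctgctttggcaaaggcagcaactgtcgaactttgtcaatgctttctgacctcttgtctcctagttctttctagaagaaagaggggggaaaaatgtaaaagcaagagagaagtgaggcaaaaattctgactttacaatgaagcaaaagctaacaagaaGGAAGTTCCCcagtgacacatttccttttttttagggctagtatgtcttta
P2ry13, chr3:59210883-59211132, minus strand: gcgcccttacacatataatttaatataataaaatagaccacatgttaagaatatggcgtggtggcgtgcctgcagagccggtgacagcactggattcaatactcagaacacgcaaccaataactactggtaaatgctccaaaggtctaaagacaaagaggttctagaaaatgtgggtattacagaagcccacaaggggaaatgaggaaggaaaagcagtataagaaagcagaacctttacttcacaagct
P2rx4, chr5:122707294-122707543, plus strand: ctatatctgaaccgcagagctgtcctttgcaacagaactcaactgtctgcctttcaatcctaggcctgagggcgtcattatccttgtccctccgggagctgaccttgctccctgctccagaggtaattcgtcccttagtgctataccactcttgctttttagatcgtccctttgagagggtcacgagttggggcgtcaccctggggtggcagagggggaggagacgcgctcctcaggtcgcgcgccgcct
Entpd1, chr19:40612116-40612365, plus strand: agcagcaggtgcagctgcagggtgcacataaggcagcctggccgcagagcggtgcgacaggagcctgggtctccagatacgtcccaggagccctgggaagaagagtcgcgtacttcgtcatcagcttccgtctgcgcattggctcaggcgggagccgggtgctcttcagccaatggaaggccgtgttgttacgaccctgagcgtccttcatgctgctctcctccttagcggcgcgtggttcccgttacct
In the *P2ry12* window the capitals mark an E-box at 228 to 223 bases before the start and an NF-kB-type motif, read on the opposite strand, at 51 to 42 bases before it. The other 3 windows held 0 matches. Letter patterns were searched on both strands of 250 bases, and the share of 32817 such RefSeq windows that hold each gives the background. GAGGAAGT of PU.1 was in 2.44%, the NF-kB motif in 17.6%, the interferon-stimulated element (ISRE) in 2.97%, TTCNNNGAA of gamma-activated sites in 7.01%, the MEF2 motif in 0.14% and the E-box CACGTG in 6.02%. Of the 10 genes, 8 had at least 1 of 13 windows and 4 windows held a match, the others being an NF-kB pattern in *Nt5e* and in 1 window of *P2ry14*, and a PU.1 pattern in *Adora3*. *P2ry6* and *Gpr34* had no entry. A match is a description of letters only.

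The ADP receptor gene *P2ry12* had 960 to 1587 CPM in the 9 medium libraries of slice microglia, with a median of 1235. With TNF the 11 libraries lay between 110 and 190 CPM (median 139), and with GM-CSF the 9 libraries lay between 324 and 512 CPM (median 432). The 3 groups did not overlap, and GM-CSF libraries stood between the others. The log2 fold change was -3.16 (SE 0.11, edgeR adjusted p 5.21e-22) with TNF and -1.56 (SE 0.11, adjusted p 5.92e-13) with GM-CSF. Compared directly, TNF libraries were lower than GM-CSF libraries (log2 fold change -1.60, SE 0.11, adjusted p 1.48e-14). The same medium libraries serve both cytokine comparisons. Slice titles carry 4 codes, as many as there were experiments, whose meaning the labels do not give, and *P2ry12* gave -3.22 and -3.10 with TNF, and -1.72 and -1.43 with GM-CSF, in codes 1A and 1B and in codes 2A and 2B alone. In adult microglia *P2ry12* had 7212, 6521, 6459 and 6166 CPM in PBS replicates 1 to 4, and 791, 1778, 949 and 757 CPM in LPS replicates 1 to 4. Every LPS library was lower than every PBS library, and LPS replicate 2 stood highest within its group. The log2 fold change was -2.62 (SE 0.29, adjusted p 0.00017), and -2.98 without that library. In brain tissue *P2ry12* had 27.6, 25.1, 27.8 and 24.0 CPM in untreated replicates, and 11.8, 9.53, 4.34 and 9.19 CPM after LPS. These groups did not overlap either, with LPS replicate 3 lowest, and the log2 fold change was -1.57 (SE 0.21, adjusted p 0.00155).

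**Figure D1:**
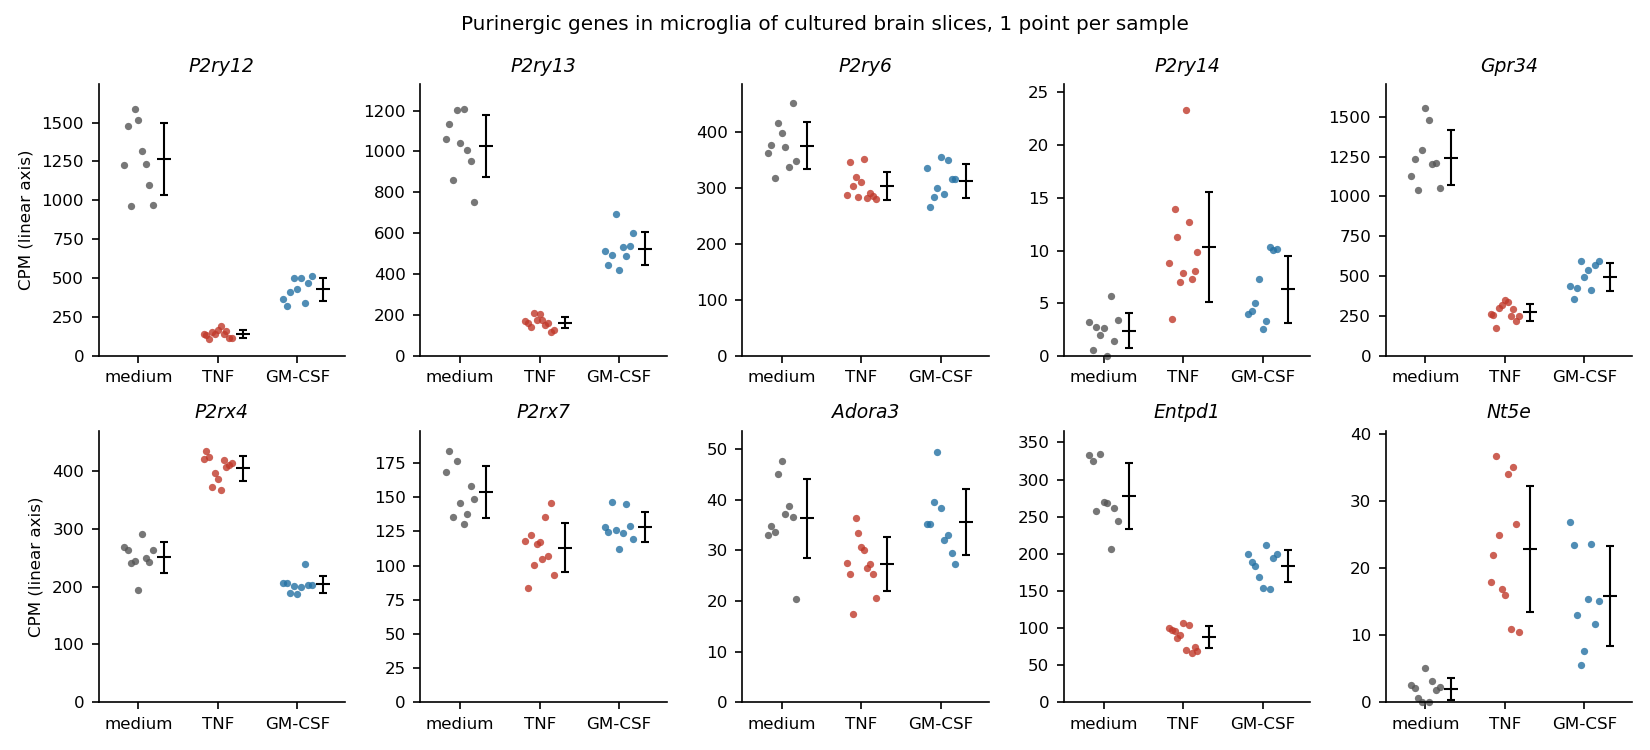
Levels of the 10 genes in slice microglia in CPM, with a panel per gene. Points are libraries (9 medium, 11 TNF, 9 GM-CSF) and bars the mean with the SD. *P2ry12*, *P2ry13* and *Gpr34* form 3 separate groups of points, with TNF lowest, while *Nt5e* starts near 0 in medium.

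In brain tissue, fewer cells of a type and less RNA per cell cannot be told apart. The 10 microglia markers summed to 316 to 360 CPM in untreated tissue and 309 to 507 CPM after LPS, where replicate 3 had 309 CPM and the others 464 to 507. *C1qa*, a complement gene, was the marker called higher (log2 fold change 1.27, SE 0.08) and *Siglech* the marker called lower (-0.72, SE 0.17), and 8 of 10 were not called. Without LPS replicate 3, *P2ry12* still had a log2 fold change of -1.35. Endothelial markers summed to 153 to 166 CPM untreated and 232 to 268 CPM after LPS (3 of 5 called higher, none at 0), border macrophage markers to 4.80 to 7.12 and 8.92 to 12.6 CPM (2 of 3 tested called higher, *Mrc1* at 0 in all), and neutrophil markers to 0.501 to 0.826 and 2.77 to 6.95 CPM (1 of 1 tested called higher). Oligodendrocyte markers summed to 4815 to 5169 CPM untreated and 3532 to 4085 CPM after LPS (2 of 4 called lower). The neutrophil marker tested passed the filter on low counts through the LPS group alone, so its higher call is not independent of the filter. The part of these cells in the brain tissue results was not tested. In adult microglia border macrophage markers summed to 9.65 to 14.9 CPM after PBS and 24.3 to 36.1 CPM after LPS (2 of 2 tested called higher), and neutrophil markers to 20.2 to 44.8 and 1.61 to 5.39 CPM (3 of 3 tested called lower). Monocyte markers there summed to 10.9 to 15.4 and 3.99 to 6.48 CPM (2 of 3 tested called lower) and endothelial markers to 28.9 to 36.3 and 10.1 to 13.7 CPM (1 of 1 tested called lower, *Cldn5* at 0 in all). The part of these lists in the adult results was not tested either.

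*P2ry13* encodes a further ADP receptor. It had 755 to 1210 CPM (median 1044) in medium, 118 to 211 CPM (median 163) with TNF and 421 to 692 CPM (median 515) with GM-CSF. The 3 groups were again apart from each other, with log2 fold changes of -2.65 (SE 0.10, adjusted p 3.5e-21) for TNF, -0.97 (SE 0.10, adjusted p 4.29e-09) for GM-CSF and -1.68 (SE 0.10, adjusted p 4.38e-16) for TNF against GM-CSF. Adult PBS microglia had 2834, 2445, 2394 and 2266 CPM, and LPS microglia 1198, 1318, 1127 and 1070 CPM. The LPS libraries were close together and all lower than PBS (log2 fold change -1.08, SE 0.09, adjusted p 2.42e-06). In brain tissue *P2ry13* had 9.83, 9.41, 8.16 and 8.76 CPM untreated and 7.26, 8.23, 5.55 and 8.63 CPM after LPS. These groups overlapped and the gene was not called (log2 fold change -0.28, SE 0.14, adjusted p 0.249). The change in adult microglia minus that in brain tissue was -0.80 (SE 0.17, adjusted p 0.00119), an interaction term fitted to the 16 libraries from mice.

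*Gpr34* encodes a receptor related to P2RY12 that responds to lysophosphatidylserine. Its level was 1043 to 1552 CPM (median 1207) in medium, 177 to 353 CPM (median 262) with TNF and 356 to 596 CPM (median 497) with GM-CSF. No TNF library reached the lowest GM-CSF library, and no GM-CSF library reached the lowest medium library. The log2 fold changes were -2.18 (SE 0.11, adjusted p 2.68e-18) for TNF, -1.34 (SE 0.11, adjusted p 1.9e-11) for GM-CSF and -0.84 (SE 0.10, adjusted p 4.03e-08) for TNF against GM-CSF. In adult microglia it had 3124, 2855, 2787 and 2752 CPM after PBS and 431, 887, 417 and 408 CPM after LPS. LPS replicate 2, the library with the most *P2ry12* in its group, also stood apart here, and all LPS libraries were lower than PBS (log2 fold change -2.43, SE 0.27, adjusted p 0.000179, or -2.78 without that library). In brain tissue untreated samples had 9.13, 8.05, 8.57 and 8.13 CPM and LPS samples 3.47, 3.18, 0.603 and 3.25 CPM, with 5 counts in LPS replicate 3. The groups did not overlap (log2 fold change -1.67, SE 0.30, adjusted p 0.00469, or -1.35 without that replicate).

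*P2ry6*, the UDP receptor gene linked to phagocytosis by microglia, moved little in slices. It had 318 to 453 CPM (median 374) in medium, 281 to 352 CPM (median 292) with TNF and 267 to 355 CPM (median 316) with GM-CSF. The groups overlapped, and the log2 fold changes of -0.31 (SE 0.06, adjusted p 0.000201) and -0.27 (SE 0.07, adjusted p 0.00288) stayed under the 1.5-fold limit. After LPS it was higher in both tissues. Adult microglia had 376, 396, 382 and 361 CPM after PBS and 725, 509, 568 and 543 CPM after LPS. All LPS libraries were higher than PBS, with replicate 1 highest (log2 fold change 0.63, SE 0.10, 1.55-fold, adjusted p 0.000254). Without LPS replicate 1 the value was 0.50, under the limit. Brain tissue had 1.10, 1.84, 2.27 and 2.08 CPM untreated (11 to 22 counts) and 3.47, 4.94, 3.98 and 5.04 CPM after LPS (33 to 45 counts). The groups were apart (log2 fold change 1.25, SE 0.24, adjusted p 0.00277).

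*P2ry14* encodes a receptor of UDP-glucose and was rare in every group. In medium it had 0 to 41 counts per library (median 2.62 CPM, 1 library at 0), with TNF 29 to 166 counts (median 8.77 CPM) and with GM-CSF 19 to 79 counts (median 5.02 CPM). Of the TNF libraries, 10 of 11 exceeded every medium library, and of the GM-CSF libraries 4 of 9 did. Some medium libraries lay under the minimum count of 10, so the medium group by itself would not have passed the filter. *P2ry14* thus entered the slice test through the cytokine groups, and its higher calls are not independent of the filter. The log2 fold changes were 2.10 (SE 0.40, adjusted p 6.28e-05) and 1.39 (SE 0.41, adjusted p 0.0107), and in GM-CSF the call was lost within the title codes (adjusted p 0.0708 in codes 1A and 1B, and 0.14 in codes 2A and 2B). Adult microglia held 9, 11, 5 and 4 counts after PBS and 30, 5, 15 and 9 after LPS, too few for the gene to enter the test. Without LPS replicate 2, which had 5 counts, the gene entered the test and was called (log2 fold change 1.31, adjusted p 0.0378). It also entered without LPS replicate 4 or without PBS replicate 1, 3 or 4. In each of those fits the members called numbered 6, as in the main fit. In brain tissue it had 2.31, 2.23, 2.68 and 1.46 CPM untreated and 2.00, 2.82, 3.02 and 2.47 CPM after LPS, overlapping groups (log2 fold change 0.24, SE 0.24, adjusted p 0.614).

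Of the ATP-gated channels, *P2rx4* encodes a subunit that is raised in microglia after nerve injury. It had 194 to 290.5 CPM (median 249.5) in medium, 366 to 434 CPM (median 409) with TNF and 187 to 239 CPM (median 202) with GM-CSF. All TNF libraries were higher than all others, while GM-CSF and medium libraries overlapped. The log2 fold change was 0.69 (SE 0.06, adjusted p 4.18e-12) with TNF, and -0.30 (SE 0.06, adjusted p 0.000239) with GM-CSF, under the 1.5-fold limit. TNF against GM-CSF gave 0.99 (SE 0.06, adjusted p 5.47e-16). Adult microglia had 149.9, 156, 142 and 154 CPM after PBS and 291, 195, 243 and 271 CPM after LPS. Every LPS library was higher, with replicate 2 lowest of them (log2 fold change 0.73, SE 0.11, adjusted p 0.000156). Brain tissue had 14.04, 13.7, 14.6 and 14.5 CPM untreated and 14.1, 16.6, 11.5 and 14.3 CPM after LPS. These overlapped (log2 fold change -0.01, SE 0.11, adjusted p 0.985), and the adult minus brain difference of the LPS effects was 0.73 (SE 0.16, adjusted p 0.00156).

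*P2rx7* encodes the channel that opens at high ATP and triggers release of interleukin-1 beta. It had 131 to 184 CPM (median 149) in medium, 83.5 to 146 CPM (median 116) with TNF and 112 to 146 CPM (median 126) with GM-CSF. Groups overlapped, and the log2 fold changes of -0.45 (SE 0.08, adjusted p 3.78e-05) and -0.26 (SE 0.09, adjusted p 0.0223) were under the fold limit. In adult microglia it had 307, 263, 275 and 266 CPM after PBS and 221, 222, 221 and 226 CPM after LPS. The groups were apart and the LPS libraries nearly equal, but the change (log2 -0.32, SE 0.07, adjusted p 0.00145) was under the limit too. Brain tissue gave overlapping values, 11.5, 12.3, 12.6 and 11.5 CPM untreated and 13.9998, 11.5, 7.96 and 10.2 CPM after LPS (log2 fold change -0.13, SE 0.14, adjusted p 0.648).

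*Adora3*, the gene of the adenosine A3 receptor, had 20.5 to 47.6 CPM (median 36.5) in medium, 17.4 to 36.3 CPM (median 27.3) with TNF and 27.3 to 49.4 CPM (median 35.2) with GM-CSF. The groups overlapped and neither cytokine passed the call (TNF log2 fold change -0.41, SE 0.13, adjusted p 0.0123, and GM-CSF -0.03, SE 0.14, adjusted p 0.90). Adult microglia had 131, 132, 139 and 121 CPM after PBS and 140.2, 142, 149 and 126 CPM after LPS, which overlapped (log2 fold change 0.09, SE 0.07, adjusted p 0.32). In brain tissue it had 6, 6, 9 and 4 counts untreated and 17, 16, 13 and 11 counts after LPS. The groups were apart at these low counts, 0.602, 0.582, 0.929 and 0.417 CPM against 1.79, 1.88, 1.57 and 1.23 CPM (log2 fold change 1.34, SE 0.32, adjusted p 0.0147). All untreated libraries lay under the minimum count of 10 and all LPS libraries over it. The gene thus entered the brain tissue test through the LPS group alone, and its higher call is not independent of the filter. The call was lost without untreated replicate 2 (adjusted p 0.0523) or 4 (adjusted p 0.0607). The adult minus brain difference was -1.26 (SE 0.27, adjusted p 0.00116). *Tmigd3*, which shares exon bases with *Adora3*, had at most 2.51 CPM in adult microglia and 0.118 CPM in brain tissue.

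**Figure D2:**
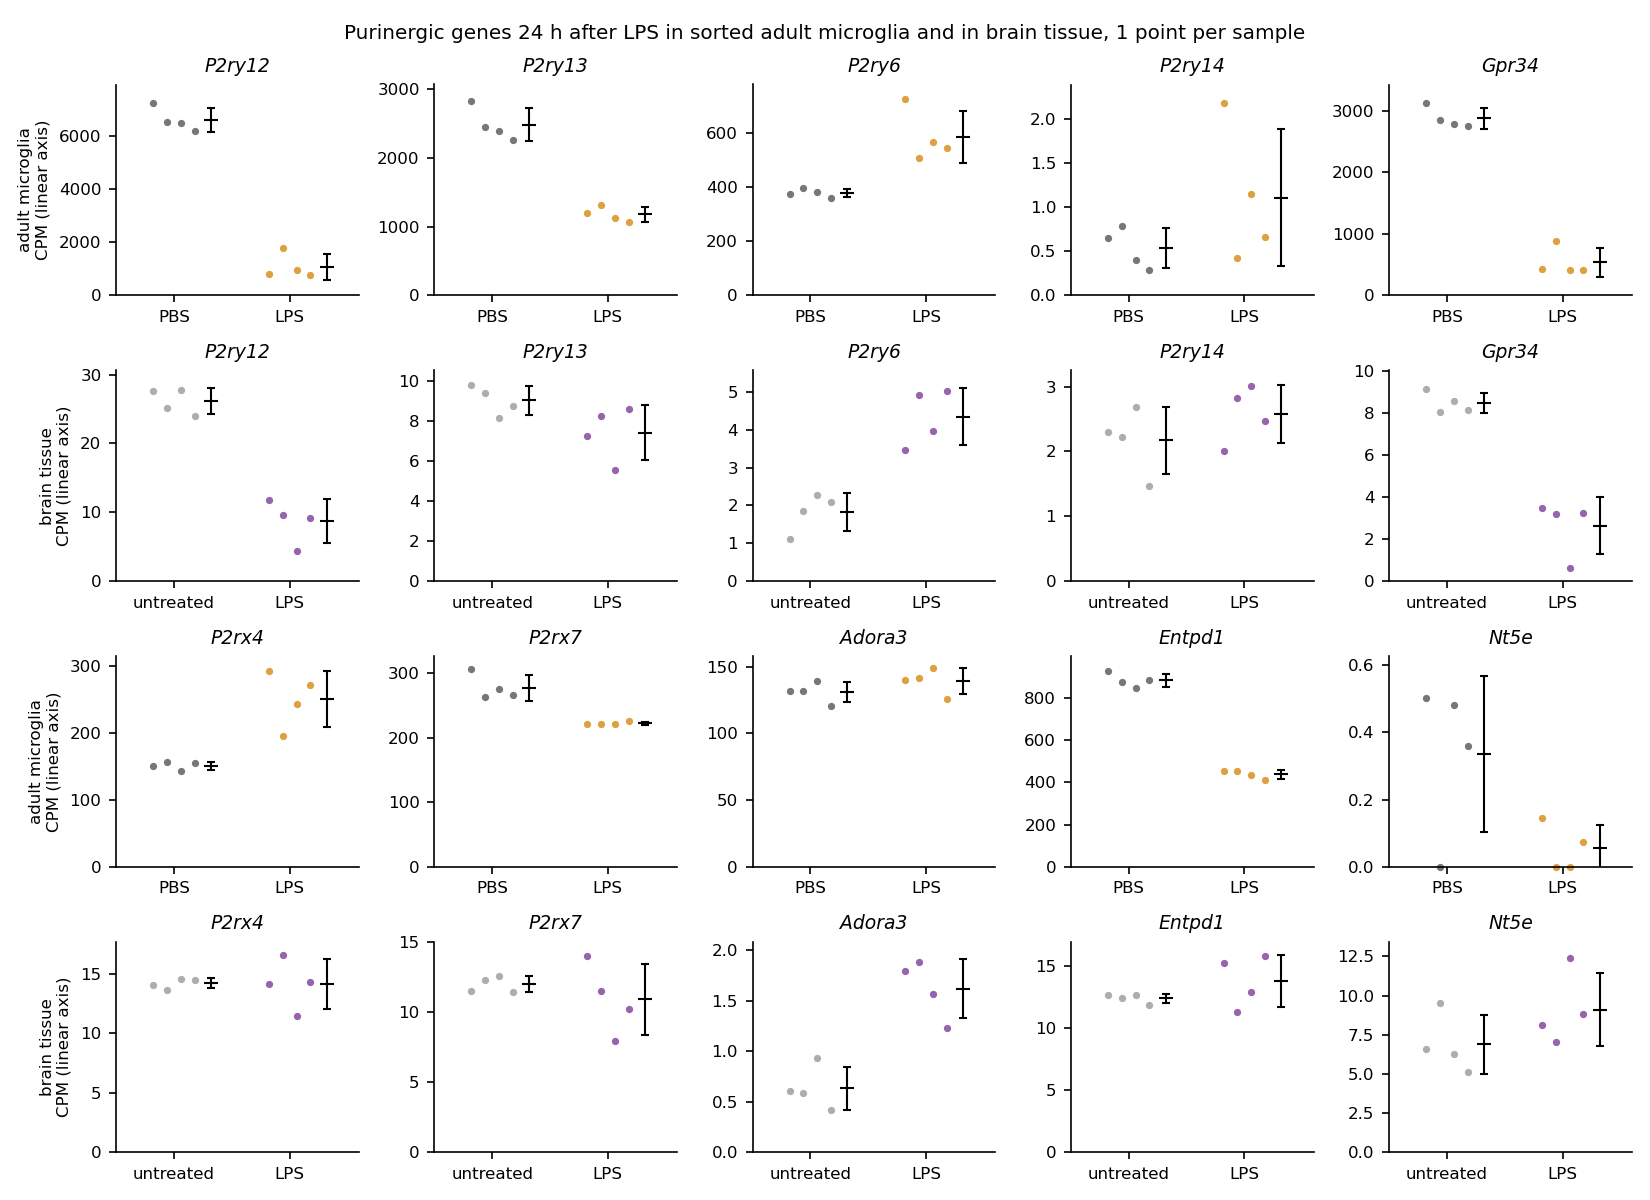
Levels in CPM of the 10 genes in adult microglia (PBS, LPS) and in brain tissue (untreated, LPS), with a panel per gene and tissue. Points are the 4 libraries of a group and bars the mean with the SD. In adult microglia *Entpd1* separates into upper PBS and lower LPS points, and in brain tissue its groups overlap.

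*Entpd1* encodes CD39, which turns ATP and ADP into AMP. It had 207 to 335 CPM (median 269) in medium, 66.2 to 107 CPM (median 91.4) with TNF and 152 to 212 CPM (median 189) with GM-CSF. All TNF libraries were lower than those of both other groups, and 8 of 9 GM-CSF libraries were lower than every medium library. The log2 fold changes were -1.66 (SE 0.10, adjusted p 1.93e-16) for TNF, -0.60 (SE 0.10, 1.51-fold, adjusted p 1.45e-05) for GM-CSF and -1.07 (SE 0.09, adjusted p 2.08e-11) for TNF against GM-CSF. The GM-CSF value lay at the fold limit, and it was called within codes 1A and 1B (-0.75) and not within codes 2A and 2B (-0.44). Adult microglia had 926, 878, 849.7 and 885 CPM after PBS and 454, 456, 433 and 411 CPM after LPS. The groups were narrow and far apart (log2 fold change -1.01, SE 0.06, adjusted p 3.9e-07). Brain tissue had 12.6, 12.4, 12.7 and 11.9 CPM untreated and 15.3, 11.3, 12.9 and 15.8 CPM after LPS. These overlapped (log2 fold change 0.16, SE 0.11, adjusted p 0.434), and the adult minus brain difference was -1.18 (SE 0.12, adjusted p 4.78e-07).

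*Nt5e* encodes CD73, which turns AMP into adenosine. Medium libraries held 0 to 35 counts (median 2.16 CPM, 2 libraries at 0), TNF libraries 69 to 299 counts (median 22.0 CPM) and GM-CSF libraries 37 to 249 counts (median 15.1 CPM). All libraries of both cytokines exceeded every medium library, with log2 fold changes of 3.52 (SE 0.42, adjusted p 1.14e-08) and 2.99 (SE 0.42, adjusted p 9.67e-07). The medium group by itself would not have passed the filter on low counts, so *Nt5e* entered the slice test through the cytokine groups. Its higher calls against medium are therefore not independent of the filter. The cytokine groups overlapped each other (TNF against GM-CSF 0.53, SE 0.35, adjusted p 0.273). Adult microglia held 7, 0, 6 and 5 counts after PBS and 2, 0, 0 and 1 after LPS, and the gene was not tested there. Brain tissue had 6.62, 9.50, 6.30 and 5.11 CPM untreated and 8.11, 7.06, 12.4 and 8.85 CPM after LPS, which overlapped (log2 fold change 0.40, SE 0.21, adjusted p 0.269). The summed CPM of oligodendrocyte precursor markers, cells that the CD11b and CD45 gate would remove, was 61.5 to 164 in medium, 118 to 247 with TNF (1 of 1 tested called higher) and 46.1 to 129 with GM-CSF. Border macrophage markers summed to 399 to 1108, 445 to 1269 and 347 to 995 CPM in that order (2 of 6 called lower with TNF and 1 of 6 with GM-CSF). Neutrophil markers summed to 0.832 to 15.8, 3.56 to 123 and 3.19 to 39.9 CPM, with 2 of 3 tested called higher with TNF and 0 of 3 with GM-CSF. The medium group by itself would not have carried a neutrophil marker past the filter, so these higher calls are not independent of it. The part of these cells in the slice results was not tested.

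By comparison, TNF called 7 of the 10 genes, 3 higher and 4 lower, where 20.8% of the 11313 genes tested were called (9.1% higher, 11.7% lower). GM-CSF called 6, 2 higher and 4 lower, where 10.8% of all genes were (4.84% higher, 5.96% lower). Those higher with either cytokine include *P2ry14* and *Nt5e*, which passed the filter through the cytokine groups. The direct comparison of TNF with GM-CSF called 5, 1 higher and 4 lower with TNF (16.2% of all genes, 8.25% higher and 7.96% lower). Not called there, besides *Nt5e*, were *P2ry6* (-0.04), *P2ry14* (0.71), *P2rx7* (-0.18) and *Adora3* (-0.38, adjusted p 0.0265, under the fold limit). In adult microglia LPS called 6 of the 8 genes that could be tested, 2 higher and 4 lower (27.4% of all genes, 14.4% higher, and 1691 of 12987 genes lower), since *P2ry14* and *Nt5e* did not pass the filter on low counts. In brain tissue 4 of 10 were called, 2 higher and 2 lower (3.18% of all genes, 2.63% higher and 0.55% lower). Those higher include *Adora3*, which passed the filter through the LPS group alone. The adult minus brain interaction called 5 of 10, 1 higher and 4 lower (19.7% of all genes, 9.1% higher and 10.6% lower). The median log2 fold change of the tested members was -0.43 with TNF, -0.28 with GM-CSF, -0.67 with LPS in adult microglia and 0.08 in brain tissue, beside -0.03, -0.04, 0.01 and 0.00 over all genes tested.

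**Figure D3:**
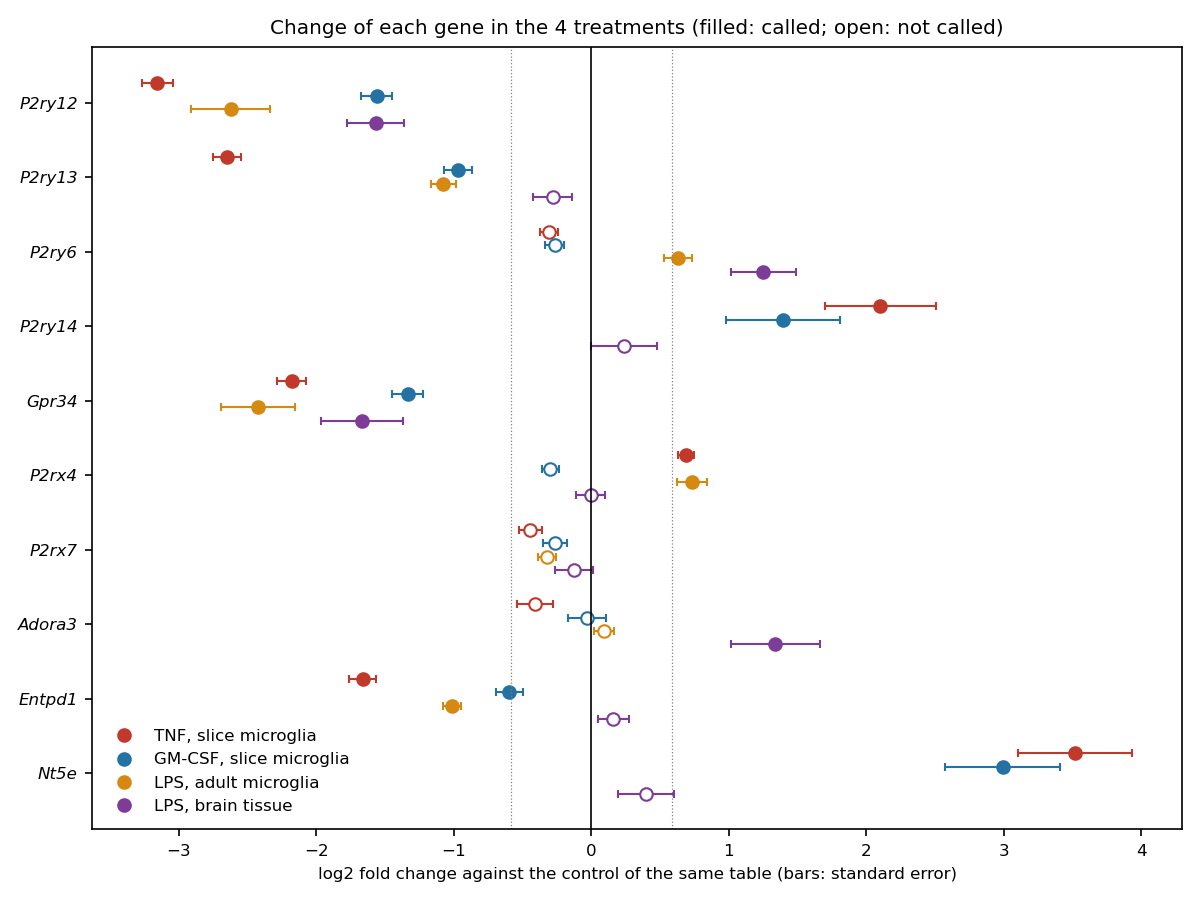
Log2 fold changes of the 10 genes in the 4 treatments, on an axis in log2 units, with 1 row per gene. Points are the edgeR estimates with the SE as bars, filled where called, and dotted lines mark 1.5-fold. *P2ry12* and *Gpr34* lie left of the lines in all 4 treatments, and *P2ry14* and *Nt5e* carry no adult microglia point because they were not tested there.

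Grouped by role, the receptors of ADP and *Gpr34* fell in both cytokine treatments and in adult LPS microglia, with TNF the lower of the cytokines for each of the 3. *Entpd1* was lower in the same 3 comparisons. *P2rx4* was called higher with TNF and adult LPS and was not called with GM-CSF. *P2ry6* was called in the LPS comparisons alone. The interaction of the LPS effects was called for *P2ry13*, *P2rx4*, *Adora3*, *Entpd1* and *Nt5e*. It was not called for *P2ry12* (-1.06, SE 0.42, adjusted p 0.0703), *P2ry6* (-0.63, SE 0.26, adjusted p 0.0689) or *Gpr34* (-0.77, SE 0.55, adjusted p 0.343). Nor was it called for *P2ry14* (0.80, SE 0.56, adjusted p 0.322) or *P2rx7* (-0.21, SE 0.15, adjusted p 0.344). Without adult LPS replicate 2 it was called for *P2ry12* (-1.43, adjusted p 5.82e-05) and *Gpr34* (-1.13, adjusted p 0.00238), and without brain LPS replicate 3 for *P2ry12* (-1.28, adjusted p 0.0298). *Nt5e* rests on adult counts of 0 to 7 (interaction -2.73, SE 0.89, adjusted p 0.0243), and the call was lost without adult PBS replicate 1 or 3 or adult LPS replicate 3 (adjusted p 0.0702, 0.0607 and 0.0608). For *P2ry6* it was called without adult LPS replicate 1 (-0.74) or brain LPS replicate 1 (-0.73). Tissue, library kit, read type and kind of control (PBS or untreated) coincide in this comparison and cannot be told apart.

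The order of the levels per kb changed with treatment. In medium it was *Gpr34* (595 CPM per kb), *P2ry12* (497), *P2ry13* (406), *P2ry6* (130), *Entpd1* (49.8), *P2rx4* (35.7), *P2rx7* (25.8) and *Adora3* (9.74), with *Nt5e* (0.230) and *P2ry14* (0.217) last. *Gpr34* exceeded *P2ry12* in 8 of 9 medium libraries. With TNF *Gpr34* still led (131 CPM per kb), and *P2ry6* (105) came next, followed by *P2ry13* (64.6), *P2rx4* (57.5) and *P2ry12* (55.7). *P2rx4* exceeded *P2ry12* in 7 of 11 TNF libraries, so that pair did not separate. With GM-CSF *Gpr34* (235), *P2ry13* (207) and *P2ry12* (168) kept the top places, ahead of *P2ry6* (108). *P2ry12* led in adult PBS microglia (2588 CPM per kb, ahead of *Gpr34* at 1378), whereas after LPS *P2ry13* (466) and *P2ry12* (420) were close, the former higher in 3 of 4 libraries. In untreated brain tissue *P2ry12* (10.3 CPM per kb) led *Gpr34* (4.05), and after LPS *Gpr34* (1.26) stood below *P2rx7* (1.83) and *P2ry6* (1.51).

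**Figure D4:**
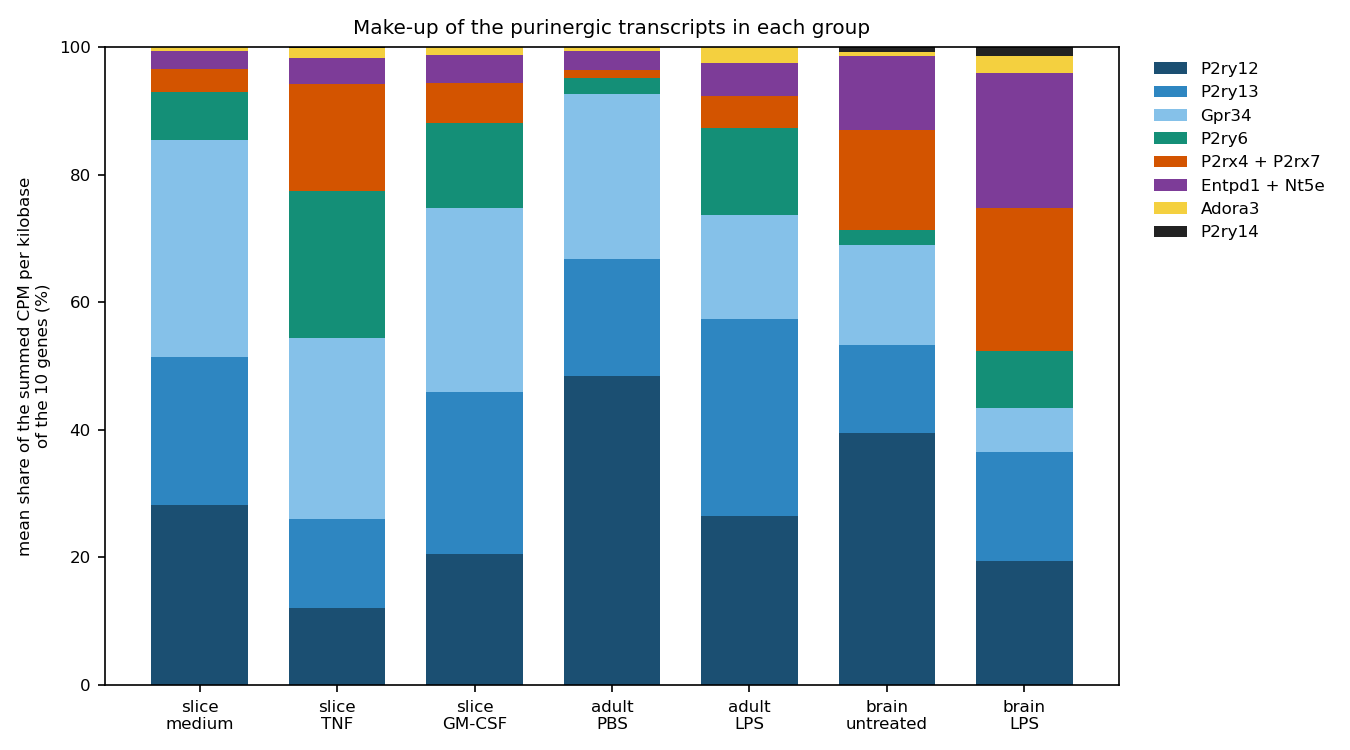
Share of the 10 genes in their summed level per kb, as stacked percent, in the 7 groups (mean over libraries). *P2rx4* and *P2rx7* are drawn together, as are *Entpd1* and *Nt5e*. *P2ry12* makes up 28.3% in medium and 48.5% in adult PBS microglia, and *P2ry6* widens from 7.51% in medium to 23.0% with TNF.

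*P2ry12* made up 28.3% of the summed level per kb in medium, 12.04% with TNF and 20.6% with GM-CSF. It fell from 48.5% to 26.5% in adult microglia after LPS and from 39.5% to 19.4% in brain tissue. The P2X channels together made up 3.56% ± 0.518 (SD) of it over 9 medium libraries and 16.8% ± 2.47 over 11 TNF libraries. The summed level itself was 1416 to 2002 CPM per kb in medium, 397 to 528 with TNF and 662 to 953 with GM-CSF, and it went from 5017 to 5853 in PBS to 1288 to 2005 in LPS microglia. These shares are descriptions of means, without a test.

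**Figure D5:**
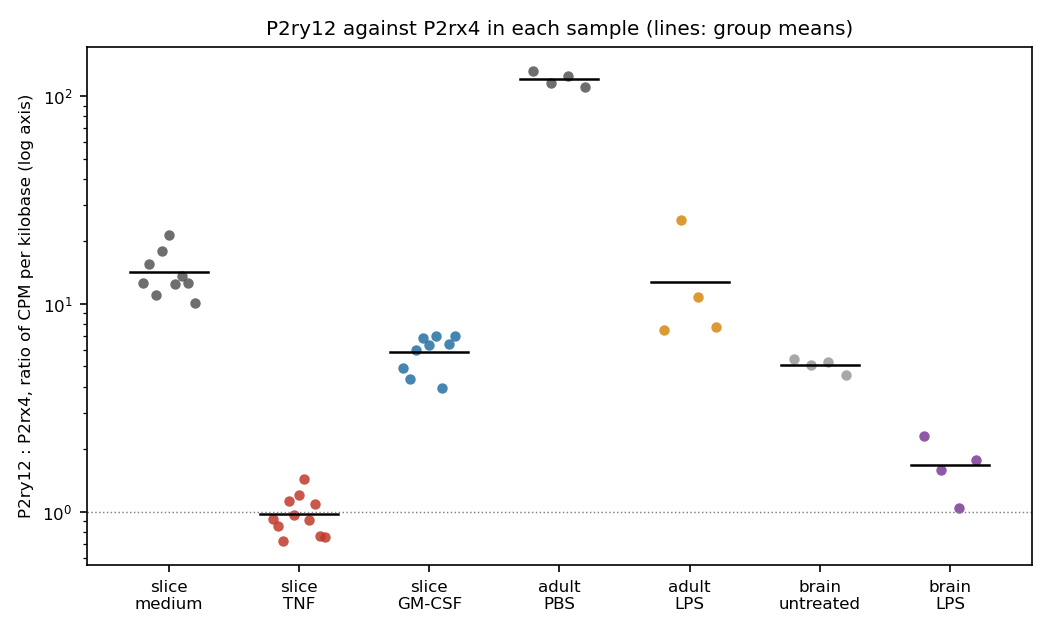
Ratio of *P2ry12* to *P2rx4*, both per kb, in every library, on a log axis. Points are libraries and lines the group means, and TNF libraries lie around 1 while adult PBS libraries lie above 110.

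The ratio of *P2ry12* to *P2rx4* per kb averaged 14.2 ± 3.60 (SD, n = 9) over medium libraries, 0.977 ± 0.219 (n = 11) over TNF libraries and 5.86 ± 1.18 (n = 9) over those of GM-CSF. The 3 groups did not overlap (10.2 to 21.5, 0.719 to 1.43 and 3.92 to 6.999). In adult microglia it went from 121 ± 10.1 to 12.8 ± 8.40 (n = 4 each), where LPS replicate 2 had 25.2. In brain tissue it went from 5.08 ± 0.372 to 1.68 ± 0.520 (n = 4 each). For CD39 and CD73, *Nt5e* per kb was 0.488% of *Entpd1* in medium, 17.9% ± 9.35 with TNF and 5.59% ± 2.71 with GM-CSF, and 35.9% ± 9.51 in untreated brain tissue.

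Across the 29 slice libraries the level of *P2ry12* followed those of *P2ry13* and *Gpr34* (Pearson r of log2 CPM 0.981 for each) and *Entpd1* (0.942), and ran opposite to *Nt5e* (-0.78) and *P2rx4* (-0.704). These points share 3 treatments, which set most of the values. After subtraction of each group's mean, r with *P2ry12* was 0.845 for *Gpr34*, 0.756 for *P2ry13*, 0.217 for *Entpd1* and -0.402 for *P2rx4*, over libraries that share their depth and preparation. Outside the 10 genes, the levels most like *P2ry12* were those of *Selenop* (0.982), *Crybb1* (0.975), *Slc46a3* (0.969), *Hfe* (0.969) and *Maf* (0.968). Of the deviations from group means, those of *Tmco1* (0.777), *Pon2* (0.767), *Npl* (0.709) and *Acy1* (0.703) were among the most like.

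Other genes of the pathway were taken from fixed lists. Of 10 further genes named for the P2X and P2Y families, 3 could be tested in slice microglia. *P2ry10b* is among them by name only, since its family is known for lysophosphatidylserine receptors. *P2ry2*, a receptor of ATP and UTP, rose with TNF (log2 fold change 1.65, adjusted p 8.14e-12) and with GM-CSF (0.61, adjusted p 0.00155), and *P2rx1* (-0.93) and *P2ry10b* (-1.18) fell with TNF and were not called with GM-CSF. In adult microglia *P2ry2* rose from 8 to 28 counts after PBS to 177 to 393 after LPS (log2 fold change 4.15, adjusted p 1.31e-06), and *P2rx1* (-1.26) and *P2ry10b* (-0.75) fell. The PBS group by itself would not have passed the filter for *P2ry2*. That gene entered the adult test through the LPS group, so its higher call is not independent of the filter. In brain tissue 0 of 4 tested were called.

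Of the 3 other adenosine receptors, *Adora2b*, the A2B receptor gene, was tested in slices. In medium 7 of 9 libraries were at 0, with 11 counts in all, whereas TNF libraries held 172 to 409 counts and GM-CSF libraries 15 to 72. Every library of both cytokines exceeded every medium library (log2 fold change 7.80, SE 0.43, adjusted p 7.32e-17 for TNF, and 4.73, adjusted p 6.56e-10 for GM-CSF), and these fitted values depend on edgeR's prior count. Medium libraries held at most 7 counts, under the minimum count of 10, so *Adora2b* entered the test through the cytokine groups alone. Its higher calls against medium are therefore not independent of the filter. TNF exceeded GM-CSF by 3.07. In adult microglia *Adora2b* had too few counts to be tested, and *Adora1* was called higher (1.83, adjusted p 0.012). *Adora1* entered that test through the LPS group, so its higher call is not independent of the filter either. In brain tissue 0 of 2 tested were called. *Adora1* held 0 counts in every brain tissue library and could not be tested there, beside 6 to 27 counts in PBS and 23 to 95 in LPS microglia. The reason for these 0 counts was not tested.

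Among the other ectonucleotidases, *Cd38*, an NAD-consuming ectoenzyme, rose with TNF (1.10, adjusted p 1.57e-05), as did its relative *Bst1* (1.01, adjusted p 7.63e-05), out of 4 tested. GM-CSF called 0 of these 4. Adult LPS microglia had 0 of 2 called and brain tissue 1 of 6, the phosphatase gene *Alpl* (-0.83, adjusted p 0.00774). Of the 5 intracellular relatives of *Entpd1*, 0 of 3 tested were called with either cytokine, and *Entpd6* was called in adult LPS microglia (0.69) as 1 of 5. Of 7 genes of adenosine uptake and breakdown, *Pnp* was called with TNF (0.69, 1 of 6 tested) and 0 of 6 with GM-CSF. In adult LPS microglia *Ada* (1.47), *Slc29a2* (1.42) and *Adk* (0.89) were called higher of 5 tested. Of 6 genes of ATP release, *Calhm2* fell with TNF (-1.46, 1 of 5) and with adult LPS (-0.78), where *Panx1* (0.72) and *Slc17a9* (0.59) were higher. Brain tissue called 0 of 4 of them.

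*Med12l*, which spans the *P2ry12* cluster, was lower with TNF (log2 fold change -1.79, adjusted p 2.46e-09), GM-CSF (-0.62, adjusted p 0.0199) and adult LPS (-0.90, adjusted p 4.1e-06). It was not called in brain tissue (0.04, adjusted p 0.783). Whether strand was used in counting is not given in the sources used here, so reads of *Med12l* and of the P2Y genes inside it cannot be fully told apart. In medium it held 70 to 130 counts, fewer than *P2ry12* (7095 to 13669) and *P2ry13* (5529 to 10501) and more than *P2ry14* (0 to 41). In untreated brain tissue it held 329 to 386 counts, more than *P2ry12* (230 to 275), *P2ry13* (79 to 98) and *P2ry14* (14 to 26).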

How the data were processed

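RNA was sequenced from 45 samples in 7 groups, as taken from the labels. The authors deposited raw counts per gene for slice microglia, and expected counts (estimates with fractions) for adult microglia and brain tissue, none of them normalized. The submitters' processing notes name mm10, STAR 2.7.0a, featureCounts and Subread 1.6.4 for the slice samples. For the other tables, aligner and counter: not given in the sources used here. Microglia libraries used SMART-Seq v4 with Nextera XT, and brain tissue TruSeq. Expected counts were rounded (70872 and 69680 values), and 92 brain rows that name no gene held 0 counts and were left out. Per-sample columns without a sample numbered 0. Symbols came from GENCODE M21 (55450 of 55450, 47224 of 47643 and 42929 of 43411 identifiers).

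Tests were edgeR 4.0.16 quasi-likelihood fits in R 4.3.3 (TMM, robust, minimum count 10, minimum total 15) over all genes, with Benjamini-Hochberg adjustment within a comparison and calls at an adjusted p under 0.05 and a fold over 1.5. Slice samples shared one fit, adult microglia and brain tissue had their own, and the difference of the LPS effects was an interaction over the 16 in vivo samples. The study's methods name a general linear model, replaced here by edgeR because the files hold counts. Scripts were tested on simulated data. Depth was 5973364 to 9165485, 11391564 to 14216005 and 8199863 to 10368578 counts per library in the order above, and errors cover these samples only. Alternatives were limma 3.58.1 voom, DESeq2 1.42.0, other scalings and filters, the replicate block, the title codes, sets of consecutive title numbers (added after seeing the data) and leaving out single replicates. All 10 genes are named in every comparison. From the lists, called genes are named, at most 3 per list and comparison by smallest p, and for likeness to *P2ry12* the 5 genes with the highest Pearson r of log2 CPM, as levels and as deviations from group means, of which 1 is not reported here. Members and lists were chosen with earlier results of these data known.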

Additional observations from a re-analysis of the deposited data

Results flagged for a closer look

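For each gene, the groups of 4 or 9 libraries were tested for a library far from the rest, and the TNF group of 11 was not. In these 60 tests 3 were found, and chance alone gives about 1 in 20. *Gpr34* had 887 CPM in adult LPS replicate 2, where the other LPS libraries had 408 to 431. *Gpr34* had 0.603 CPM in brain LPS replicate 3, where the others had 3.18 to 3.47. *P2rx4* had 239 CPM in GM-CSF replicate 7, where the others had 187 to 206.

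The effect of LPS differed between adult microglia and brain tissue in the interaction test for 5 genes, given as the adult minus the brain log2 fold change: *P2ry13* -0.80, *P2rx4* 0.73, *Adora3* -1.26, *Entpd1* -1.18 and *Nt5e* -2.73. *P2ry13* and *Entpd1* were lower after LPS in all 4 adult libraries than in every PBS library, with overlapping groups in brain tissue. *Adora3* was the reverse case, with overlap in adult microglia and none in brain tissue at 4 to 17 counts. In the brain tissue test *Adora3* passed the filter through the LPS group alone.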

How the results depend on the processing

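Of the log2 fold changes of the 10 genes under the alternatives, 865 kept direction and side of the threshold, 15 passed it only there, 17 no longer passed and 7 changed sign. The sign changes were *Adora3* with GM-CSF (0.0751 with total counts only, 0.123 with codes 1A and 1B), *P2ry6* for TNF against GM-CSF (0.0644 with codes 1A and 1B) and *P2rx4* in brain tissue (0.0111 with total counts only, and -0.0916 to 0.0792 without single replicates, where 0.0792, 0.00635 and 0.0043 were above 0). None of these was called in any fit. The number of members called fell from 4 to 2 in brain tissue with a minimum count of 50, where *P2ry6* and *Adora3* left the test, and from 5 to 3 for the interaction with limma-voom (*P2ry13* adjusted p 0.0623, *Nt5e* 0.0675), whose cause was not tested. *Adora3* in brain tissue lost its call with DESeq2 (adjusted p 0.0567). Leaving out single replicates gave 5 to 7 members called in adult microglia, 3 to 4 in brain tissue and 4 to 7 for the interaction. *Entpd1* with GM-CSF was called in 6 of the 12 other settings that kept the fold limit.

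Over all genes, dropping the fold limit raised the calls from 2353 to 4476 for TNF, 1222 to 2892 for GM-CSF, 1833 to 3486 for TNF against GM-CSF, 3563 to 6703 in adult microglia, 479 to 1533 in brain tissue and 3289 to 5136 for the interaction. GM-CSF gave 785 with codes 2A and 2B, and brain tissue 288 with a minimum count of 50. Scaling by total counts moved the median log2 fold change by 0.11 for GM-CSF and by -0.17 for TNF against GM-CSF, and the split of higher to lower calls from 548 and 674 to 817 and 459, and from 933 and 900 to 694 and 1514.

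Deviations of same-numbered samples had r of 0.042 to 0.175 for medium and TNF. The range was 0.012 to 0.101 for GM-CSF and medium, and -0.035 to 0.115 for GM-CSF and TNF. In adult microglia r was -0.021 to 0.014 and in brain tissue -0.076 to 0.043. Medium replicates 1 to 4 correlated best with the TNF sample of their own number (r 0.175, 0.157, 0.11 and 0.147), and replicates 5 to 9 did not. Elsewhere not every sample correlated best with its own number. The main fit did not pair samples by replicate number. With the replicate number as a block, 2423, 1258, 1828, 3452, 448 and 3222 genes were called in the order above, and the members called numbered 7, 6, 5, 6, 4 and 5. The slice titles also hold running numbers in sets of consecutive medium, TNF and GM-CSF samples, a pairing chosen after seeing the data. Medium and TNF replicates 1 to 4 fall in the same sets, and later replicate numbers join different sets. Samples of a set had r of -0.032 to 0.175 for medium and TNF (over 0.1 in 6 of 9 pairs, 6 best with their own), 0.012 to 0.129 for GM-CSF and medium (2 of 8) and 0.041 to 0.138 for GM-CSF and TNF (3 of 9). Medium and TNF samples of a set thus tended to deviate together, and the main fit left the sets out. With these sets as a block 2416, 1227 and 1908 genes were called, and 7, 5 and 5 members. *Entpd1* with GM-CSF (-0.56) lost its call. Counts of *Nt5e*, *P2ry14* and *Adora3* limit what brain tissue and adult microglia can show.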
